A study of Homo sapiens with 5 samples.

Results

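The extracellular matrix and collagen-processing genes were examined in RPE-1 cells after knockdown of FAM53C. They are 52 genes selected by gene symbol from the 64252 genes of the deposited count table, without a filter on their values. They comprise 12 collagen chains, 9 basement membrane components, 20 matricellular and structural proteins and proteoglycans, and 11 enzymes and chaperones that process collagen. RPE-1 is an immortalized human retinal pigment epithelial line, here with a wild-type genotype and grown in high-glucose medium with serum. Cells received an On-Target control siRNA (siCtrl, 3 libraries) or pooled siRNAs that target FAM53C (siFAM53C, 2 libraries), each at 5 µM, and polyadenylated RNA was collected at 48 hr. Because the siRNAs were pooled, the effect of each cannot be told apart. No label says that libraries of a condition came from separate cultures, so the p-values below measure only the spread between these libraries.

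The matrix is made of proteins that cells secrete and assemble outside themselves. Collagen chains are hydroxylated and folded into triple helices in the endoplasmic reticulum, trimmed after secretion and cross-linked by lysyl oxidases. Fibril-forming collagens give tensile strength, whereas type IV collagen and laminins build sheets that nidogens and the proteoglycans perlecan and agrin tie together. The retinal pigment epithelium rests on such a sheet in the eye.

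The libraries held 19260124 to 25615415 counts on genes. Expression is given in CPM, counts scaled to a common library total and by TMM factors. For levels between genes, CPM was divided by the exon length in kb, taken as the union of exons over all GENCODE 44 transcripts of the gene. This union can exceed the length of the transcripts expressed, so the order of levels per kb between genes depends on the annotation. FAM53C itself had 60.9, 59.7 and 57.6 CPM in siCtrl and 14.2 and 22.3 CPM in siFAM53C, so 30.7% of the control mean was left. Of 12 markers of the pigment epithelium, 3 had a mean of at least 1 CPM and 4, RPE65 among them, had no count, and their summed level was 58.1 to 68.6 CPM in siCtrl and 53.4 to 63 CPM in siFAM53C. All 9 mesenchymal markers had a mean of at least 1 CPM, led by VIM (3515 to 4146 CPM in siCtrl, 3226 and 3872 CPM in siFAM53C). Among them PDGFRB was called higher (log2 fold change 0.67, adjusted p = 0.02454 by edgeR), DESeq2 also called ACTA2 higher (0.74 in edgeR), and CDH2 was at -0.44. Exons on the opposite strand overlap 36% of the exon sequence of ACTA2 and 24.6% of that of VIM. Their counts are uncertain if strand was not used in counting. Of the 9, 5 had a log2 fold change below 0 and 4 above. CDH2, PDGFRA, THY1 and SNAI2 were lower without overlap (44.4%, beside 18.8% of all tested genes). PDGFRB and ACTA2 were higher without overlap (22.2%, beside 16.7%). The part of these markers in the results was not tested. Of the epithelial markers, KRT8 (236 to 285 CPM in siCtrl, 319 and 328 CPM in siFAM53C) and KRT18 were expressed, whereas CDH1 did not exceed 0.157 CPM. The summed endothelial markers did not exceed 1.44 CPM and the summed blood markers 1.15 CPM in any library. In bulk RNA, fewer cells of a type and less RNA per cell cannot be told apart.

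The libraries also differed within a condition. A principal component analysis placed siCtrl replicate 3 (33.7) with siFAM53C replicate 2 (44.9) on its leading axis (39.8% of the variance), apart from siCtrl replicates 1 and 2 (-31.5 and -47.4), and siFAM53C replicate 1 fell between them (0.264). The matrix genes moved with this split. They took 1.65%, 1.64% and 2.34% of all counts in siCtrl and 1.76% and 2.35% in siFAM53C, so the highest shares were in siCtrl replicate 3 and siFAM53C replicate 2 and the conditions overlapped. No label names a batch, though siCtrl replicate 3 and siFAM53C replicate 2 share a number in the column names of the count table. The part of the split in the results was not tested. Results are therefore also given with a term for the split in the model, a fit chosen with the split already known.

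Of the 52 genes, 43 had enough counts to be tested, among 15341 genes in all. A gene was called at an adjusted p under 0.05 in the quasi-likelihood test of edgeR, with p-values adjusted by the method of Benjamini and Hochberg over all tested genes. NID1, SPARC and LTBP1 fell and COL1A1 rose after FAM53C knockdown. This is 3 lower, or 6.98% of the tested matrix genes beside 3.47% of all tested genes, and 1 higher, or 2.33% beside 0.489%. DESeq2 called these same 4 genes among the 42 it gave an adjusted p, beside 6.98% of all genes lower and 2.02% higher, and limma-voom also called them. At an unadjusted p under 0.05, 5 matrix genes were lower and 2 were higher. Of all 15341 tested genes, 1607 were lower and 1014 higher at that threshold. The median log2 fold change of the 43 genes was 0.063, with 16 below and 27 above 0, and it was 0.016 over all tested genes.

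**Figure D1:**
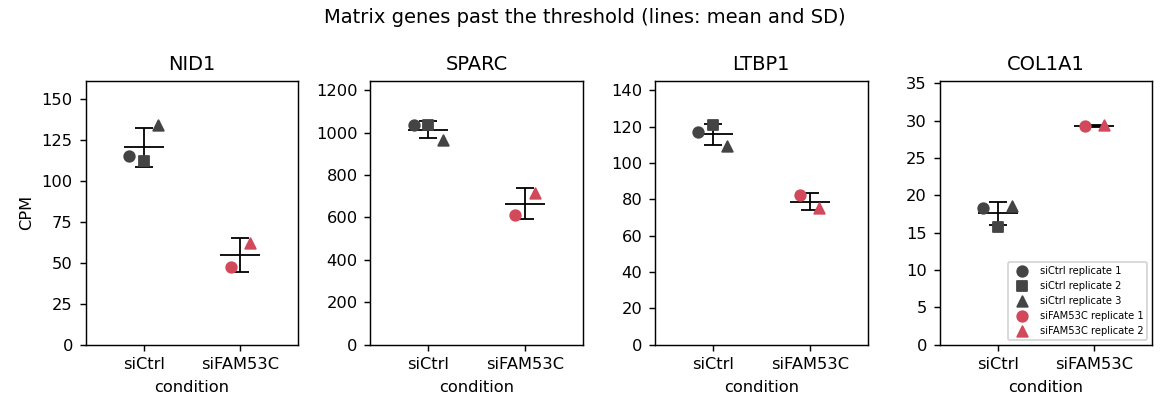
Expression in CPM (vertical axes, from 0) of the matrix genes past the threshold in each siCtrl and siFAM53C library, with the mean and SD of each condition as lines. The siFAM53C libraries lie below all siCtrl libraries for NID1, SPARC and LTBP1 and above them for COL1A1, and circles, squares and triangles mark replicates.

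NID1 showed the largest decrease among the tested matrix genes. It encodes nidogen-1, which links laminin to type IV collagen in the basement membrane (ENSG00000116962, chromosome 1 of GRCh38, 235975830 to 236065109, minus strand). It had 115, 112 and 134 CPM in siCtrl and 47.4 and 62.3 CPM in siFAM53C. All siCtrl libraries were above both siFAM53C libraries, with means of 120.0 ± 11.9 CPM (SD, n = 3) and 54.8 ± 10.6 CPM (SD, n = 2). The log2 fold change was -1.13 (SE 0.15) and edgeR gave an adjusted p of 0.007407. Within the sides of the library split it was -1.26 (siFAM53C replicate 1 against siCtrl replicates 1 and 2) and -1.10 (siFAM53C replicate 2 against siCtrl replicate 3). Without siFAM53C replicate 1 it was -0.95 and the adjusted p was 0.06146.

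An earlier analysis of these data had singled out a heptamer, GACAAGA, in the 3' UTRs of genes that were lower in siFAM53C. It is present in the longest annotated 3' UTR of 1399 of the tested genes with such a UTR (11.6%), and these had a median log2 fold change of -0.18, with 15.1% called lower. Genes without it had a median of 0.02, with 2.92% called lower. Since the heptamer was picked on these same libraries, this contrast was built in by its choice and is given as a description only. Of the 43 tested matrix genes, 2 hold it (4.65%), NID1 and FBN1. In NID1 it starts at base 2 of the 2037-base 3' UTR of ENST00000264187.7. The first bases of that UTR, at chr1:235977847-235977866 on the minus strand of GRCh38, are shown with the heptamer in capitals:
NID1: aGACAAGAgtgccttatttc
In FBN1 it lies at chr15:48643411-48643440 (minus strand), in the 3' UTR of ENST00000560355.1, a transcript that ends close to the 5' end of the gene (48408313 to 48645721, minus strand), and FBN1 was not called (log2 fold change 0.18). SPARC and LTBP1 fell and do not hold these letters in the UTRs searched. Among the cell type markers PDGFRB (log2 fold change 0.67), which was called higher, holds them. THY1 (-0.22) and OTX2 (-0.20) also hold them and were not called, but were lower without overlap, as were 18.8% of all tested genes. In the other lists below, the tested genes that hold them were MMP16 (-1.17), MATN2 (-1.15), COL4A3 (-0.37), SPOCK1 (-0.28), COLGALT2 (0.024) and ADAMTSL4 (0.22). Of these MMP16 was called lower, and MATN2 and SPOCK1 were called lower with the split term only. The sequences of the siRNAs were not used here, and the part of the heptamer in the decrease of NID1 was not tested.

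The nidogen paralogue NID2 had 101, 86.7 and 115 CPM in siCtrl and 72.7 and 91 CPM in siFAM53C. The conditions overlapped, and the log2 fold change of -0.30 (SE 0.15) did not pass the threshold (adjusted p = 0.377 by edgeR). With the term for the library split it was called lower at -0.36 (adjusted p = 0.01211 by edgeR). A share of 30.7% of its exon sequence overlaps a gene on the opposite strand, which makes its counts uncertain if strand was not used in counting. NID1 has no such overlap.

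Of the laminin chains, which form the basement membrane network as trimers of an α, a β and a γ chain, none was called. LAMC1, the γ1 chain, had the highest level at 71.2 CPM per kb in siCtrl, followed by the β chains LAMB2 (28.8 CPM per kb) and LAMB1 (24.5 CPM per kb). The order of the β chains rests on annotated exon lengths of 6865 bases for LAMB2 and 18592 bases for LAMB1. Without division by length LAMB1 had the higher siCtrl mean, 455 CPM beside 198 CPM for LAMB2. The α chains were lower, with 5.51 CPM per kb for LAMA4 and 4.68 CPM per kb for LAMA5. LAMB1 had 451, 424 and 489.7 CPM in siCtrl and 364 and 379 CPM in siFAM53C, without overlap. Its log2 fold change was -0.29 with an SE of 0.11 (unadjusted p = 0.03487, adjusted p = 0.2458 by edgeR), which did not pass the threshold. LAMB2 had 193, 160.0 and 240.3 CPM in siCtrl and 223 and 278 CPM in siFAM53C, which overlap, with a log2 fold change of 0.34 (SE 0.18). With the split term the 2 β chains were called in opposite directions, LAMB1 lower at -0.31 (adjusted p = 0.01065) and LAMB2 higher at 0.28 (adjusted p = 0.0391) by edgeR. LAMC1 had 524, 530.4 and 749 CPM in siCtrl and 536 and 719.9 CPM in siFAM53C, with a log2 fold change of 0.063 that was -0.011 with that term. LAMA4 and LAMA5 had log2 fold changes of 0.20 (SE 0.43) and 0.16 (SE 0.13).

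The heparan sulfate proteoglycans were not called either. AGRN, which encodes agrin, had 924, 810.1 and 762 CPM in siCtrl and 1001 and 1003 CPM in siFAM53C. The siFAM53C libraries were the highest of all, with a log2 fold change of 0.27 (SE 0.12) and an adjusted p of 0.3283 by edgeR. HSPG2, which encodes perlecan, had 136, 137 and 348 CPM in siCtrl and 186 and 398 CPM in siFAM53C, so its highest values were in siCtrl replicate 3 and siFAM53C replicate 2. Its log2 fold change was 0.50 with an SE of 0.59 (adjusted p = 0.7607 by edgeR). A gene on the opposite strand overlaps 11.7% of its exon sequence. With the split term AGRN was called higher at 0.29 and HSPG2 at 0.34 (adjusted p = 0.02384 and 0.009074 by edgeR).

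Of the 9 tested collagen chains, 8 had a log2 fold change above 0 (7950 of 15341 tested genes did), with a median of 0.39. That median was 0.29 with the split term, 0.15 and 0.43 within the sides of the split, 0.60 without siFAM53C replicate 1 and 0.10 without siFAM53C replicate 2. COL1A1 was called. It encodes the α1 chain of type I collagen (ENSG00000108821, chromosome 17 of GRCh38, 50184101 to 50201632, minus strand). It had 18.3, 15.8 and 18.6 CPM in siCtrl and 29.2 and 29.4 CPM in siFAM53C, without overlap. The log2 fold change was 0.74 (SE 0.14) and edgeR gave an adjusted p of 0.03098. It was 0.78 and 0.66 within the sides of the split. Its level was low among the matrix genes, at 1.95 CPM per kb in siCtrl and 3.25 CPM per kb in siFAM53C.

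The usual partners of some fibril-forming chains were almost undetected. COL1A2, the α2 chain that pairs with COL1A1 in type I collagen, had 5, 1 and 7 counts in siCtrl and 7 and 2 counts in siFAM53C, too few to test. COL5A1, the α1 chain of type V collagen, had 5 counts in siCtrl replicate 3 and 0 counts in each other library. Its partner COL5A2 had 97.6, 87.9 and 155 CPM in siCtrl and 80.8 and 144 CPM in siFAM53C. COL3A1, the chain of type III collagen, had 23 counts in siFAM53C replicate 2, 1 count in siCtrl replicate 3 and 0 counts in the others, so that nearly all its reads came from a single library. COL11A1, the α1 chain of type XI collagen, had 1.7, 1.94 and 7.6 CPM in siCtrl and 4.01 and 11 CPM in siFAM53C. Its log2 fold change of 1.01 was the highest of the tested matrix genes but had an SE of 0.77 and an adjusted p of 0.5928 by edgeR, and siCtrl replicate 3 exceeded siFAM53C replicate 1. With the split term it was called higher at 0.86 (adjusted p = 0.02856 by edgeR).

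COL8A1, a network-forming chain found in basement membranes of the eye and of vessels, had the highest level of the 12 collagens, at 49 CPM per kb in siCtrl. It had 433, 397 and 554 CPM in siCtrl and 536 and 701 CPM in siFAM53C, with siCtrl replicate 3 above siFAM53C replicate 1. The log2 fold change was 0.42 with an SE of 0.18 (unadjusted p = 0.0476, adjusted p = 0.287 by edgeR), and with the split term it was 0.36 (adjusted p = 0.003849). COL12A1, a chain that sits on the surface of fibrils, had 377, 392 and 715 CPM in siCtrl and 388 and 606 CPM in siFAM53C. The conditions overlapped, with a log2 fold change of 0.0075 (SE 0.34) that was -0.093 with the split term. The other tested collagens, COL18A1 and COL16A1, had log2 fold changes of 0.22 (SE 0.24) and 0.42 (SE 0.31).

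The type IV collagen genes COL4A1 and COL4A2, whose products assemble into the same trimer, had 21.5 and 24.6 CPM per kb in siCtrl. These levels rest on annotated exon lengths of 14662 and 19271 bases. Without division by length the siCtrl means of COL4A1 and COL4A2 were 315 and 474 CPM. COL4A2 had 462, 387 and 574 CPM in siCtrl and 469 and 773 CPM in siFAM53C. COL4A1 had 238, 232 and 473 CPM in siCtrl and 225 and 528 CPM in siFAM53C. Both were highest in siFAM53C replicate 2 and next in siCtrl replicate 3, and neither was called, with log2 fold changes of 0.39 (SE 0.24) and 0.26 (SE 0.51). The pair is transcribed in opposite directions from starts that RefSeq places 126 bases apart on GRCh38.p14. That stretch, chr13:110307158-110307283, is shown because it lies upstream of both RefSeq starts. GENCODE 44 starts COL4A2 earlier, at 110305812, so by that annotation the stretch lies within COL4A2. It is written on the plus strand, the strand of COL4A2, with a CCAAT box (CCAAT) and a GC box (GGGCGG) in capitals:
COL4A1 and COL4A2: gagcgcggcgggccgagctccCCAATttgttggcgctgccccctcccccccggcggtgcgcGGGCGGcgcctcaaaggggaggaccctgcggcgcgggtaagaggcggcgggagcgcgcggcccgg
Its GC content is 80.2%. Over the 250 bases upstream of the start, on either strand, CCAAT was found in 11 of the 33 matrix genes with a single RefSeq start (33.3%) and in 32% of 35116 promoters of all genes. GGGCGG was found in 26 (78.8%), beside 42.6% of all promoters, and TATAAA in 2 (6.06%), beside 10.7%. These matches are a description of the sequence, and all promoters include those of genes that RPE-1 cells do not express.

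Matricellular and structural genes held the highest levels and 2 of the decreases. FN1, encoding the adhesive glycoprotein fibronectin, had the highest level of the 52 genes (327 CPM per kb in siCtrl). It had 4719, 5067 and 7123 CPM in siCtrl and 5490 and 6873 CPM in siFAM53C, which overlap, with a log2 fold change of 0.13 (SE 0.21). SPARC and THBS1 followed in level, at 218 and 146 CPM per kb in siCtrl.

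SPARC encodes osteonectin, a secreted protein that binds collagen and calcium (ENSG00000113140, chromosome 5 of GRCh38, 151661096 to 151686975, minus strand). It had 1036, 1036 and 967 CPM in siCtrl and 614 and 716 CPM in siFAM53C. The lowest siCtrl library was above both siFAM53C libraries, with a log2 fold change of -0.61 (SE 0.12) and an adjusted p of 0.03772 in edgeR. Within the sides of the split it was -0.75 and -0.43. A gene on the opposite strand overlaps 4.12% of its exon sequence. SPARC was not called when libraries were scaled by their totals alone.

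LTBP1 encodes a protein that holds latent TGF-β in the matrix (ENSG00000049323, chromosome 2 of GRCh38, 32946953 to 33399509, plus strand). It had 117, 121 and 109.7 CPM in siCtrl and 82.3 and 75.4 CPM in siFAM53C. There was no overlap, and the log2 fold change was -0.56 (SE 0.11) and edgeR gave an adjusted p of 0.0301. It was -0.53 and -0.54 within the sides of the split. Its paralogue LTBP2 had 64.9, 61.1 and 70.1 CPM in siCtrl and 54.1 and 80.7 CPM in siFAM53C, with a log2 fold change of 0.043 (SE 0.17). Genes on the opposite strand overlap 3.39% of the exon sequence of LTBP1 and 0.655% of that of COL1A1.

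The calls of SPARC, LTBP1 and COL1A1 were each lost without siCtrl replicate 1, siCtrl replicate 2, siFAM53C replicate 1 or siFAM53C replicate 2. Over all 16 alternatives the log2 fold change stayed between -0.75 and -0.43 for SPARC, between -0.63 and -0.48 for LTBP1 and between 0.66 and 0.81 for COL1A1, and the adjusted p, where there was a test, reached 0.3169, 0.252 and 0.2055.

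THBS1, encoding the adhesive glycoprotein thrombospondin-1, had 1111, 1124 and 1774 CPM in siCtrl and 1437 and 2098 CPM in siFAM53C. Its values overlapped between conditions and its log2 fold change was 0.40 (SE 0.25). With the split term it was called higher at 0.31 (adjusted p = 0.007008 by edgeR). The proteoglycan gene VCAN had 611, 672 and 1029 CPM in siCtrl and 496 and 677 CPM in siFAM53C, which overlap. Its log2 fold change was -0.39 with an SE of 0.25 (adjusted p = 0.4954 by edgeR). With the split term it was called lower at -0.47 (adjusted p = 0.0008301 by edgeR).

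The remaining elastic fibre and structural genes tested had log2 fold changes between -0.23 (EMILIN1) and 0.78 (POSTN, with an SE of 0.79). ELN, which encodes elastin itself, had 3 counts, all in siCtrl replicate 3, and FBLN5 had 1 count there and 6 in siFAM53C replicate 2. THBS2, a relative of THBS1, had 2 to 4 counts in each library. The small proteoglycan LUM had 0 counts in every library, which allows a level of up to 0.117 to 0.156 CPM by the library totals, and DCN had at most 5 counts. These limits cover counting error only. The fibrillin gene FBN1, by contrast, had 663, 726 and 1578 CPM in siCtrl and 763 and 1483 CPM in siFAM53C.

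Among the 10 tested processing enzymes and chaperones, edgeR, DESeq2 and limma-voom called 0 genes, with 1 at an unadjusted p under 0.05. That gene was SERPINH1, encoding the collagen chaperone HSP47. It had 468, 429 and 420.1 CPM in siCtrl and 351 and 352 CPM in siFAM53C. The siFAM53C libraries were lower without overlap, and the log2 fold change was -0.32 with an SE of 0.11 (adjusted p = 0.1877 by edgeR).

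Of the lysyl oxidases, which cross-link collagen and elastin, LOX, LOXL2 and LOXL1 were among the matrix genes with the highest levels. LOX had 122 CPM per kb in siCtrl, LOXL2 89.4 CPM per kb and LOXL1 80.7 CPM per kb. LOXL3 and LOXL4 were low, at 1.69 and 0.113 CPM per kb in siCtrl. LOX had 567, 549 and 939 CPM in siCtrl and 412 and 749 CPM in siFAM53C, with a log2 fold change of -0.24 (SE 0.34). LOXL1 had 322, 297 and 262 CPM in siCtrl and 334 and 326 CPM in siFAM53C, higher without overlap, with a log2 fold change of 0.17 (SE 0.12). LOXL2 had 579.9, 506 and 519 CPM in siCtrl and 496 and 504 CPM in siFAM53C, lower without overlap, with a log2 fold change of -0.10 (SE 0.11). Neither was past the threshold with or without the split term. The hydroxylase genes P4HA2, PLOD1 and PLOD2 had log2 fold changes of -0.12, 0.11 and -0.27. PXDN, encoding the peroxidasin that cross-links type IV collagen, had one of 0.046, LOXL3 one of 0.38 and PCOLCE, an enhancer of propeptide cleavage, one of 0.50 (SE 0.27), and none was called. LOXL4, with 5 to 11 counts in each library, was not tested. With the split term LOX (-0.39), PLOD2 (-0.37) and SERPINH1 (-0.31) were called lower, with adjusted p of 0.001898, 0.003017 and 0.01187 by edgeR.

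**Figure D2:**
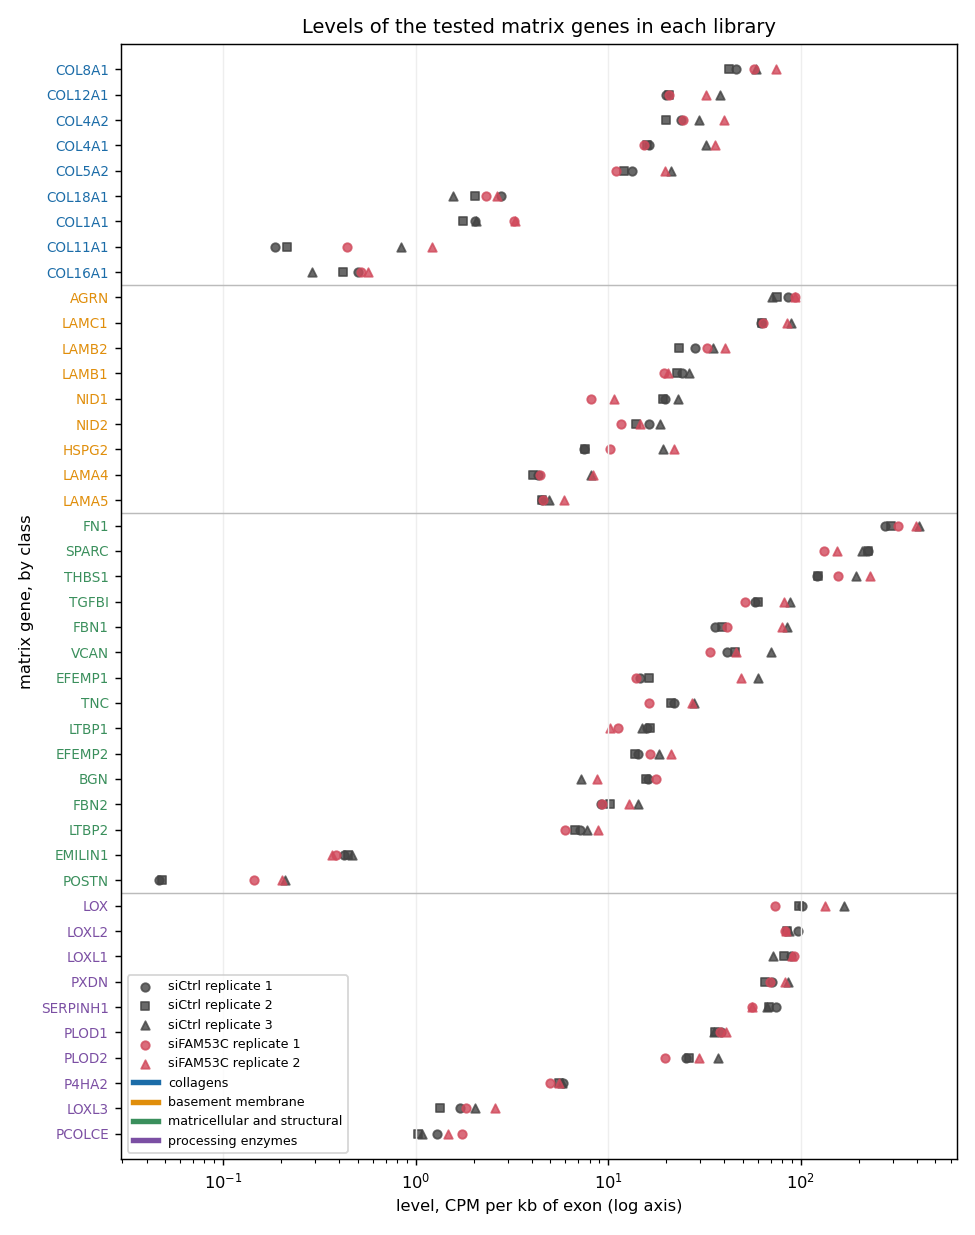
Level of each tested matrix gene in CPM per kb of exon (horizontal log axis), with a point for each library and genes grouped by class. FN1, SPARC and THBS1 have the highest levels, and triangles (siCtrl replicate 3 and siFAM53C replicate 2) lie to the right of the other points for many genes.

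**Figure D3:**
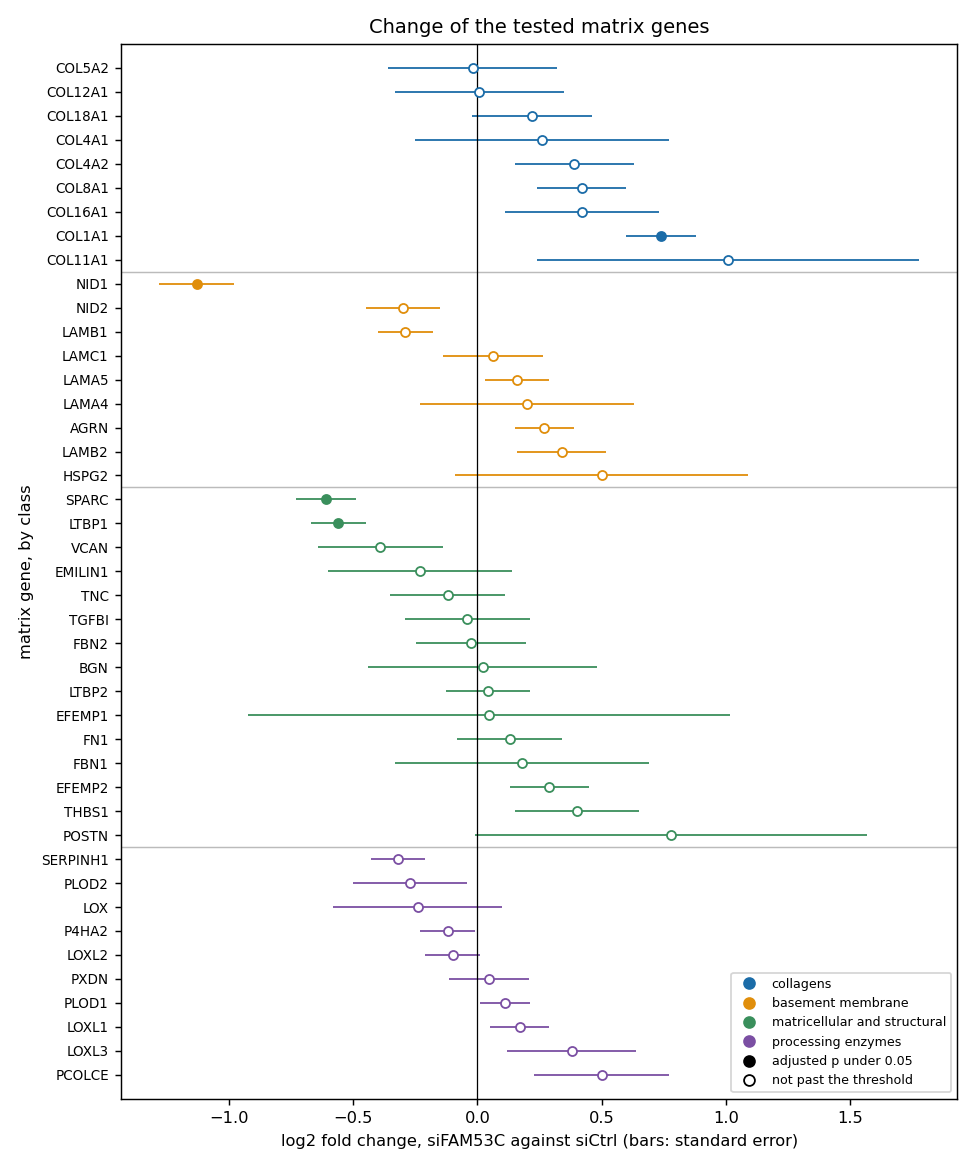
Log2 fold change of siFAM53C against siCtrl (horizontal axis) with its standard error for the 43 tested matrix genes, grouped by class. Filled points passed the threshold in edgeR (NID1, SPARC, LTBP1 and COL1A1), and the widest bars belong to genes such as EFEMP1 and COL11A1.

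A lack of overlap between conditions was no more frequent in matrix genes than in others. Both siFAM53C libraries were below all siCtrl libraries for 7 genes (16.3%, beside 18.8% of all tested genes) and above them for 5 genes (11.6%, beside 16.7%). The 7 were NID1, LAMB1, LTBP1, EMILIN1, SPARC, LOXL2 and SERPINH1, and the 5 were COL1A1, COL16A1, AGRN, LOXL1 and PCOLCE.

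For most matrix genes the split between libraries was larger than the log2 fold change of the knockdown. In siCtrl, replicate 3 exceeded the mean of replicates 1 and 2 for 32 of the 43 tested genes (74.4%, beside 50.3% of all tested genes), with a median log2 difference of 0.38, beside 0.0025 over all tested genes. In siFAM53C, replicate 2 exceeded replicate 1 for 38 of the 43 (7780 of 15341 tested genes), with a median of 0.39, beside 0.0054. Both differences were above 0 for 31 genes (72.1%, beside 35%). For 28 genes (65.1%, beside 55.9%) the difference between siCtrl replicate 3 and the mean of siCtrl replicates 1 and 2 was larger in size than the log2 fold change of the knockdown.

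The split was widest in a few genes. EFEMP1, encoding fibulin-3, had 57.7, 64.7 and 238 CPM in siCtrl and 55.1 and 193 CPM in siFAM53C, a 3.89-fold difference between siCtrl replicate 3 and the mean of siCtrl replicates 1 and 2. The same ratio was 4.18 for COL11A1, 2.55 for HSPG2, 2.27 for FBN1 and 2.01 for COL4A1. BGN, encoding the small proteoglycan biglycan, went the other way, with 38.6, 38 and 17.4 CPM in siCtrl and 42.7 and 21 CPM in siFAM53C (0.455). POSTN had the widest ratio, 4.46, at no more than 1.15 CPM in any library. The processing enzymes were divided, with 5 of 10 above 0 and a median log2 difference of -0.02 in siCtrl, and the ratio was 1.68 for LOX and 1.44 for PLOD2.

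**Figure D4:**
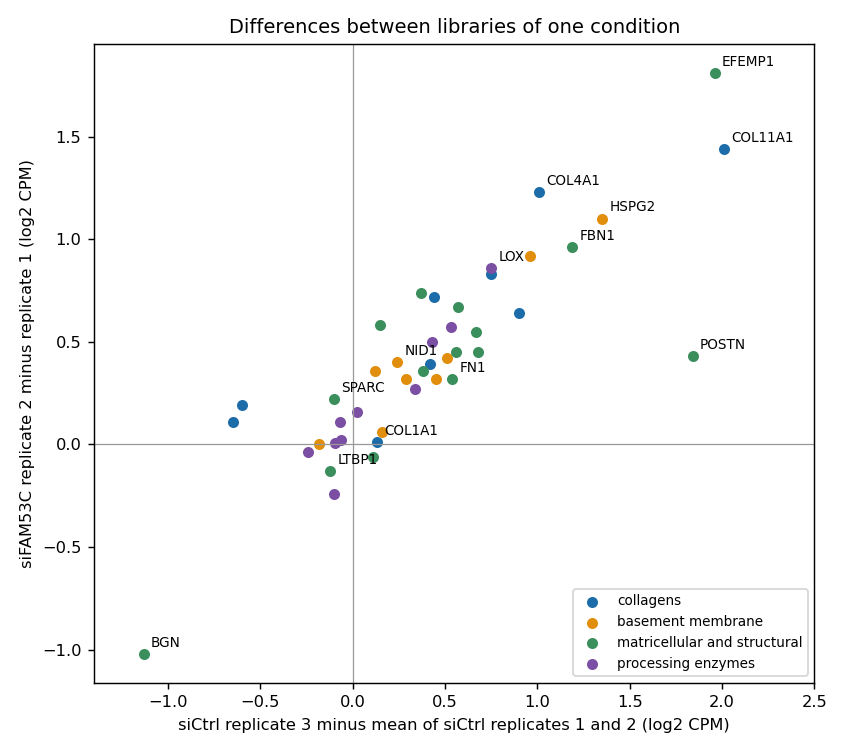
Log2 CPM difference between siCtrl replicate 3 and the mean of siCtrl replicates 1 and 2 (horizontal axis) against that between siFAM53C replicates 2 and 1 (vertical axis), with a point for each of the 43 tested matrix genes, coloured by class. Most points are above 0 on both axes, EFEMP1 and COL11A1 are at the upper right and BGN is at the lower left.

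The differences in siCtrl and siFAM53C, which share no library, went together across the 43 matrix genes with a Pearson correlation of 0.86, and across all 15341 tested genes with one of 0.37. The sides were set with the split of these same libraries already known, which favours a positive correlation. All points come from the same 5 libraries and genes are not independent replicates, so no p is given. With the term for the split, edgeR called 9 matrix genes lower (20.9%, beside 10.7% of all tested genes) and 7 higher (16.3%, beside 6.76%). The 9 were LAMB1, LOX, LTBP1, NID1, NID2, PLOD2, SERPINH1, SPARC and VCAN, and the 7 were AGRN, COL11A1, COL1A1, COL8A1, HSPG2, LAMB2 and THBS1. Each gene called without the term was called with it. The added calls rest on a term with 2 libraries on its smaller side and were not checked in other samples.

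Further genes of the same pathways were read from lists chosen by function. Among 12 tested of 32 other collagen chains, edgeR, DESeq2 and limma-voom called 0, with 0 at an unadjusted p under 0.05 in edgeR, 0 with the split term and a median log2 fold change of 0.28. The highest changes there among well-measured genes were in COL4A5 (29, 29.3 and 42.9 CPM in siCtrl, 39.4 and 48.1 CPM in siFAM53C, 0.38 on the log2 scale) and COL7A1 (0.28), neither past the threshold. Of 25 tested of 27 other genes for collagen folding and secretion, 1 fell (4%, near the 3.47% of all tested genes). This was SEC24D, a component of the COPII coat that carries procollagen out of the endoplasmic reticulum. It had 165, 172 and 176 CPM in siCtrl and 109 and 123 CPM in siFAM53C, and edgeR gave a log2 fold change of -0.56 (SE 0.11) with an adjusted p of 0.03056. DESeq2 called 2 of these genes lower (8.33%, beside 6.98% of all genes) and the fit with the split term 3 (12%, beside 10.7%). The added gene in both was ADAMTS3, encoding a procollagen protease, with 9.13, 9.21 and 9.53 CPM in siCtrl and 3.7 and 5.3 CPM in siFAM53C. Its log2 fold change of -1.04 (SE 0.24) did not pass the threshold in edgeR without that term (unadjusted p = 0.002925, adjusted p = 0.06307). The prolyl hydroxylase gene P3H1 (-0.40) was called with the split term only (-0.48), and the procollagen protease gene ADAMTS14 (-0.51) in none of these fits.

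Of 7 tested of 16 other basement membrane genes, edgeR, DESeq2 and limma-voom called 0, with 0 at an unadjusted p under 0.05. The fit with the split term called 2 lower (28.6%, beside 10.7% of all tested genes), NTN4 at -0.76 and LAMB3 at -0.27, whose log2 fold changes without it were -0.63 and -0.37. Of 16 tested of 34 other matrix glycoproteins and proteoglycans, 1 rose (6.25%, beside 0.489% of all tested genes). DESeq2 called 2 higher (13.3%, beside 2.02% of all genes) and limma-voom called 0 in either direction. The fit with the split term called 2 lower (12.5%, beside 10.7%) and 3 higher (18.8%, beside 6.76% of all tested genes). THBS3 had 26.2, 21.7 and 24.8 CPM in siCtrl and 35.1 and 51.5 CPM in siFAM53C, and edgeR gave a log2 fold change of 0.84 (SE 0.18) with an adjusted p of 0.04965. A gene on the opposite strand overlaps 29.1% of its exon sequence. LTBP3 (0.41), a relative of LTBP1, was not called in edgeR but was called higher in DESeq2 and with the split term (0.39). MATN2 (-1.15) was called lower with the split term only (-1.45).

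Of 30 tested of 38 matrix proteases and their inhibitors, 3 fell and 0 rose, or 10% lower beside 3.47% of all tested genes. DESeq2 called 4 lower (14.3%, beside 6.98% of all genes). The fit with the split term called 8 lower (26.7%, beside 10.7% of all tested genes), ADAMTS5 (-1.16) among them. MMP16, a membrane-bound metalloproteinase, had 52.4, 53.2 and 64.5 CPM in siCtrl and 26.8 and 23.6 CPM in siFAM53C. The log2 fold change was -1.17 with an SE of 0.14 (adjusted p = 0.004696 by edgeR), and its longest 3' UTR holds the heptamer at 2 sites. PLAUR, the receptor of urokinase, had 232, 229 and 204 CPM in siCtrl and 127 and 125 CPM in siFAM53C. PLAT, the tissue plasminogen activator, had 303, 281 and 209 CPM in siCtrl and 135 and 149.8 CPM in siFAM53C. Their log2 fold changes were -0.82 (SE 0.11) and -0.89 (SE 0.17), with adjusted p of 0.007276 and 0.03118 by edgeR, and neither holds the heptamer. ADAMTS10 was not called, with 9.55, 7.48 and 21.3 CPM in siCtrl and 10.8 and 31.5 CPM in siFAM53C and a log2 fold change of 0.73. MMP2, the gelatinase gene with one of the highest levels in the list, had 1728, 1760 and 1707 CPM in siCtrl and 1803 and 1741 CPM in siFAM53C.

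Of the called genes in these lists, MMP16 was called under each of the 14 alternatives with a test, with a log2 fold change from -1.27 to -1.06. PLAUR (-0.87 to -0.74), PLAT (-1.04 to -0.78) and SEC24D (-0.65 to -0.48) were each lost without siCtrl replicate 1, siCtrl replicate 2, siFAM53C replicate 1 or siFAM53C replicate 2, and SEC24D also when libraries were scaled by their totals. THBS3 (0.53 to 1.08) was lost in limma-voom, with the filter at a mean of 5 CPM, and without siCtrl replicate 1, siCtrl replicate 2 or siFAM53C replicate 2.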

How the data were processed

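RNA from 3 siCtrl and 2 siFAM53C libraries of RPE-1 cells was sequenced as paired reads. Per the labels, the authors used cutadapt 2.10 for trimming, HISAT2 for alignment to hg38 and featureCounts for counting, and they deposited raw counts per gene without normalization. The methods state reverse strandedness for the alignment. The strand setting of the counting and the annotation release are not given in the sources used here. The labels and the methods name different RNA kits, and the methods give duplicates for each condition, so all 5 libraries were used. Symbols and positions were taken from GENCODE 44 (GRCh38), and 56105 of 64252 gene identifiers matched.

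The count analysis used edgeR 4.0.16 under R 4.3.3. Genes were kept by filterByExpr (minimum count 10, minimum total 15), scaled by TMM and compared by the robust quasi-likelihood test with Benjamini-Hochberg adjustment at 0.05, with the condition as the only term. The library totals of 19260124 to 25615415 limit the precision for genes with few counts. Replicates of a condition differed by 9.2 to 42.9 in chi-square per gene, more than sampling noise. The tests were run on simulated counts with known changes first. Values per library are given for FAM53C, called members, members without overlap and a log2 fold change of at least 0.5 in size, the 3 of highest level per class, and examples. From the other lists, called genes and the 2 largest changes at a mean of at least 10 CPM are named. A gene that this rule names is not reported here. The members and lists were chosen with earlier results of these data known, and examples outside the rule after their values were seen.

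The alternatives were DESeq2 1.42.0, limma-voom (limma 3.58.1), changed size factors, changed low-count filters, a replicate block, a term for the library split and each library left out. Promoters are RefSeq's on GRCh38.p14, of which 33 matched members with a single start.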

Additional observations from a re-analysis of the deposited data

How the results depend on the processing

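Over 15 matrix genes and 16 alternatives, 195 of 240 log2 fold changes kept their direction and, where there was a test, their side of the threshold. The differences within the sides of the split had no test. Of the other values, 12 passed the threshold only under the alternative, 14 no longer passed it and 17 changed sign. A further 2 values, without a test, moved by more than the spread between replicates. DESeq2 gave 890 genes lower and 257 higher, where edgeR gave 533 and 75, and the edgeR fit without a filter on low counts gave 961 and 375. Library totals in place of TMM gave 121 genes higher. The term for the library split gave 1636 lower and 1037 higher, with 9 and 7 matrix genes.

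A replicate block by the numbers in the titles gave 856 genes lower (5.58%) and 355 higher (2.31%), with 3 of the 43 matrix genes lower and 4 higher. A replicate block by the numbers in the column names gave 1350 (8.8%) and 642 (4.18%), with 9 matrix genes lower (20.9%) and 4 higher (9.3%). Deviations of same-numbered libraries correlated at 0.169 and -0.285 by titles and at 0.169 and 0.371 by column names. With 2 pairs these share only a number. The deviations of the 2 siFAM53C libraries from their mean are mirror images, so the correlations are not independent of each other. The block by column names keeps the sides of the library split, except that siCtrl replicate 2 forms a block of its own.

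With each library left out in turn, between 157 and 886 genes were lower and between 6 and 414 higher, and 0 to 3 matrix genes were lower and 0 to 4 higher. The lowest count of lower genes came without siFAM53C replicate 1, and the highest without siCtrl replicate 3, when COL11A1, COL8A1 and THBS1 joined COL1A1. A lone siFAM53C library is then assumed to vary like the siCtrl libraries. The median log2 fold change of the matrix genes was -0.17 without siFAM53C replicate 2 and 0.28 without siFAM53C replicate 1.

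The direction changed for 5 genes, none of them called in the main edgeR fit. LOX among them was called lower with the split term and with the block by column names. COL12A1 was -0.10 with the block by column names, -0.093 with the split term and -0.24 within the side of siFAM53C replicate 2, and LAMC1 was -0.012, -0.011 and -0.057. FN1 was -0.052 within that side. With each library left out, the values ranged from -0.35 to 0.38 for COL12A1, from -0.17 to 0.26 for LAMC1, from -0.02 to 0.70 for COL4A2, from -0.04 to 0.34 for FN1 and from -0.74 to 0.12 for LOX. The cause was not tested. The depth leaves COL1A2, COL3A1 and COL5A1, at a few counts, without a comparison.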
